A study of Homo sapiens with 20 samples.

Results

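In LNCaP cells, a prostate cancer cell line, 2937 H3K4me3 regions were found in both libraries made after CTCF siRNA but in none made after control siRNA. They were chosen by joining the regions of the 4 H3K4me3 lists wherever these shared at least 1 bp, on chromosomes 1 to 22 and X, and by keeping each merged region with that pattern. They made up 6.45% of the 45558 consensus regions, which are the merged regions present in at least 2 of the 4 lists. Presence and absence of H3K4me3 therefore selected these regions, and the number, width and scores of their H3K4me3 regions are given as a description only. The study transfected cells with a pool of siRNAs against CTCF or a pool of non-targeting siRNAs, each at 20 nM. Midway the cells were split and transfected again, and chromatin was immunoprecipitated 144 h after the first transfection. H3K4me3, H3K27ac and CTCF were each measured in 2 control libraries and 2 CTCF siRNA libraries, so that 12 libraries enter the comparisons. All groups are the same cancer cell line, every control also received siRNA, and the methods call the ChIP-seq replicates biological duplicates, without saying whether the marks share cell preparations.

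H3K4me3 marks the nucleosomes around active or poised transcription start sites (TSSs), and weaker regions of it are found at active enhancers. H3K27ac marks active promoters and enhancers. CTCF is a zinc finger protein that binds a long DNA motif, blocks cohesin as it extrudes chromatin loops, and separates neighbouring domains of activity. CpG islands, stretches in which the CG dinucleotide is not depleted, underlie most housekeeping promoters and many promoters of developmental genes.

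The strongest CTCF sites within these regions had peaks in control cells and, at some of them, after depletion. Their reference sequence was searched for the CTCF motif. The consensus motif was searched on both strands within 100 bases of the summit, allowing 2 mismatches. Each sequence is the hg19 reference on the strand of the motif, 5′ to 3′, with the matched 14 bases in capitals and 8 bases on each side. Of the 6 lost sites with the highest control enrichment, 4 held a match.
TTC7A, chr2:47214309-47214338: cctcaccgCCACTAGAGGGCAGccgtggac
ZNF76, chr6:35209043-35209072: atctttggCCAGCAGAGGGCACtgcccacc
KHNYN, chr14:24901135-24901164: ccctgccgTCACTAGGGGGAGCtctcactc
SLC6A5, chr11:20631834-20631863: atcccctcCCACCACCGGGCGGcaggagca
Sites that kept a peak in both CTCF siRNA libraries are called persistent, and 5 of the strongest in the regions read as follows.
ASPG, chr14:104544446-104544475: aggcgttgCCGGCAGAGGGCACtggaggga
MPZL1, chr1:167772743-167772772: gctcttggCCAGCAGGTGGCAGcactggct
SERPINA9, chr14:94952763-94952792: gcctgtggCCACTAGAGGGCACcaggtgct
BARX2, chr11:129234214-129234243: cctgctgtCCGGTAGAGGGCAGtagcggcc
LGR6, chr1:202162123-202162152: gcacccggCCTCCAGGTGGCACcaatccgc
No mismatch was found at TTC7A, ZNF76, MPZL1 and SERPINA9. The motifs at ASPG, BARX2 and LGR6 had 1 mismatch each, and those at KHNYN and SLC6A5 had 2. A match was present at 80 of the 90 persistent sites in the regions (88.9%, 95% interval 80.7 to 93.9) and at 157 of the 213 lost ones (73.7%, 67.4 to 79.2). Over all control sites it was present at 74.0%, and at the centres of the 2640 regions without a CTCF site in control cells it was present in 5.45% of windows of the same length.

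The 3 widest regions that held a protein-coding TSS differ in their base composition, and the 200 bases upstream of the TSS are shown for each, from hg19 and on the strand of the gene, with CG dinucleotides in capitals.
HTR4, chr5:148034091-148034290, minus strand: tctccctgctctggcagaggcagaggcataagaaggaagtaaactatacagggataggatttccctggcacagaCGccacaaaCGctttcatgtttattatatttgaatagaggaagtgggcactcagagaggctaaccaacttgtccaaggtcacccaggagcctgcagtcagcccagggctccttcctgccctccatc
ADAMTSL1, chr9:17906361-17906560, plus strand: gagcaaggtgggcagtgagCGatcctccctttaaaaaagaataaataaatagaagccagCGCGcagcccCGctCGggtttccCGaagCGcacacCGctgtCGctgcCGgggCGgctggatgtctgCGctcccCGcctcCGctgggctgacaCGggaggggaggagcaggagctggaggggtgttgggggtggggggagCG
ACER3, chr11:76630923-76631122, plus strand: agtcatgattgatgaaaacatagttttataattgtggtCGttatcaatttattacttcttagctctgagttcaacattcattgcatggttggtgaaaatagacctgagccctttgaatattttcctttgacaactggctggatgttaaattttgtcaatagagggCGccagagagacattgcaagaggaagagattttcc
The ADAMTSL1 sequence held 16 CG dinucleotides and was 65.5% G or C. The HTR4 and ACER3 sequences held 2 each, with a G or C content of 51.5% and 36.5%. Over the whole regions HTR4 was closer to ADAMTSL1. The G or C content was then 56.9% at HTR4, 62.0% at ADAMTSL1 and 37.9% at ACER3. The ratio of observed to expected CG dinucleotides was 0.54, 0.66 and 0.19 in the same order. In GENCODE release 44 on hg19 coordinates, the ADAMTSL1 TSS is the first of its gene, whereas those of HTR4 and ACER3 lie inside the gene.

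**Figure D1:**
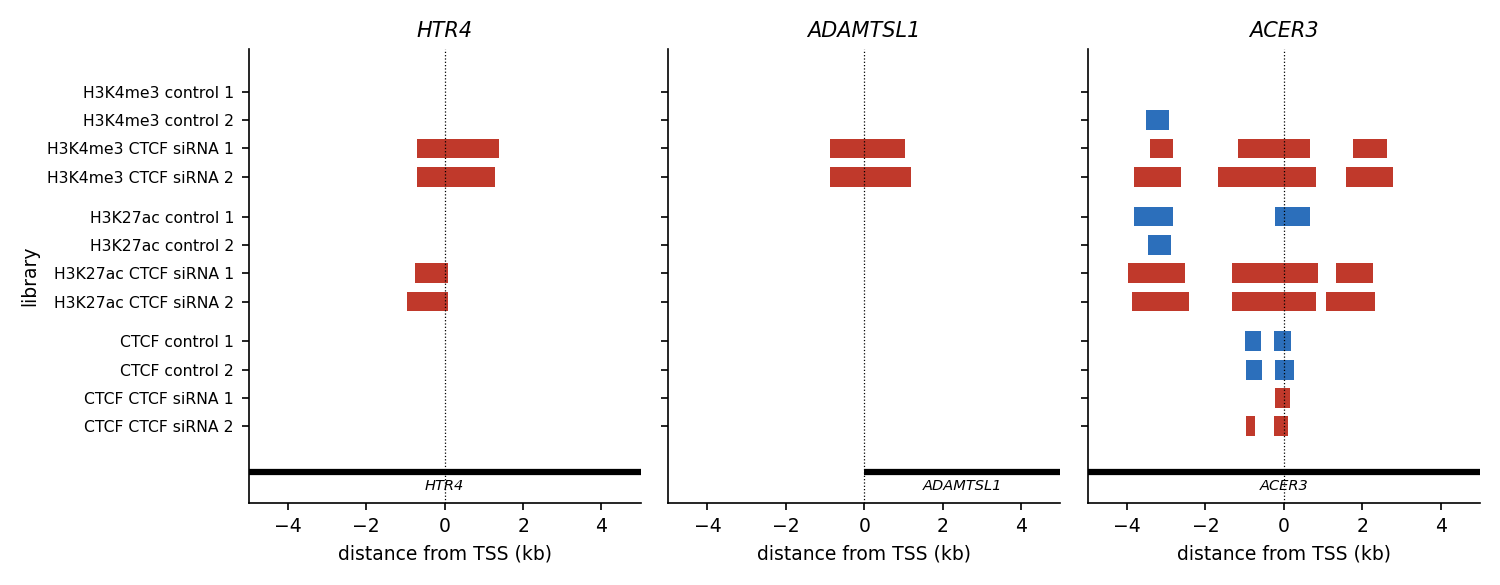
Regions and peaks called in each of the 12 libraries within 5 kb of the TSS of HTR4, ADAMTSL1 and ACER3, in kb from the TSS in the direction of transcription; each bar is 1 called region or peak, blue in control and red in CTCF siRNA libraries, and black lines are the genes. H3K4me3 spans each TSS in the 2 CTCF siRNA libraries only, H3K27ac is called in the 2 CTCF siRNA libraries at HTR4 and in none at ADAMTSL1, and ACER3 holds 1 lost and 1 persistent CTCF site.

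The HTR4 region (chr5:148032701-148034800) was 2100 bp wide in CTCF siRNA replicate 1 and 2000 bp in replicate 2. HTR4 encodes a serotonin receptor. H3K27ac was also called there in both CTCF siRNA libraries but in no control library, and the nearest H3K4me3 region present in all 4 libraries was 92900 bp away. The ADAMTSL1 region (chr9:17905701-17907750), at a gene for a secreted matrix protein, was 1900 and 2050 bp wide and carried no H3K27ac region in any library. The ACER3 region (chr11:76629451-76631950), at a gene for a ceramidase, was 1850 and 2500 bp wide and carried H3K27ac in control replicate 1 and in both CTCF siRNA libraries. In the plot of the 3 promoters it has neighbours on both sides: the downstream H3K4me3 region was called in both CTCF siRNA libraries alone, and the upstream one also in control replicate 2.

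The lists do not have the same length, which bears on every count of regions present on 1 side. On the chromosomes used, the control H3K4me3 lists held 36492 and 48462 regions, and the lists from CTCF siRNA cells 41107 and 59774. The longest list, that of CTCF siRNA replicate 2, alone contributed 16476 merged regions that no other library had. The opposite pattern, presence in both control lists and absence from both others, was found 1165 times, so that regions only after CTCF siRNA were 2.52 times as frequent. When each list was shortened to the length of the shortest, 36492, the counts were 1942 and 1564, a ratio of 1.24. Of the 2937 regions, 1116 (38.0%) kept the pattern in the shortened lists. With the 50% of each list that had the lowest scores, a quantity whose meaning the files do not give, the counts were 918 and 177, with 65 of the 2937 regions among them. Shortening assumed that regions with low scores are the stronger ones, which the files do not state. By the read totals in the study's reporting summary, the longest list did not come from the deepest library: CTCF siRNA replicate 2 had the fewest H3K4me3 reads of the 4. The part that list length plays in the count was not tested beyond these values. The luminal prostate marker KLK3 had an H3K4me3 region within 1 kb of a TSS in all 4 libraries, and so had CTCF. Of 10 markers of fibroblasts, blood and endothelium, 3 had no region in any library, 2 (COL1A1 and TWIST1) had one in all 4, and the others had one in 1 to 3. The endothelial marker PECAM1 was also on the list but has no value here.

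**Figure D2:**
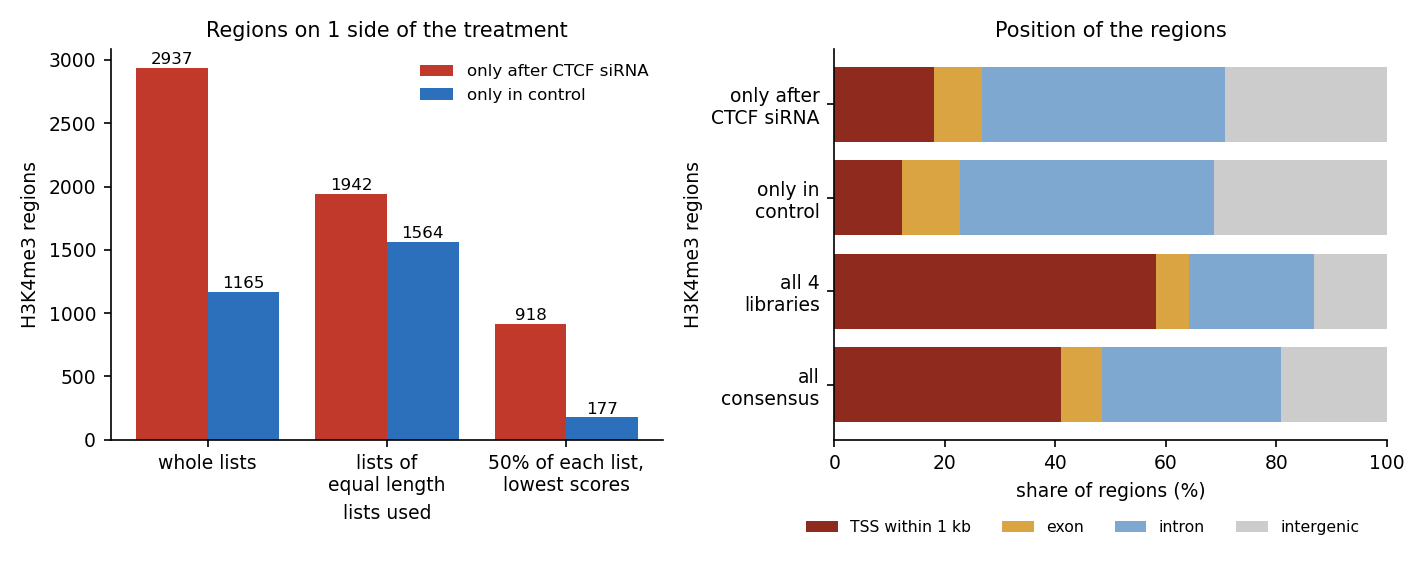
Left, the number of H3K4me3 regions found only after CTCF siRNA (red) or only in control (blue) with whole lists, lists of equal length and only the lowest-scored 50% of each list; right, the share of regions within 1 kb of a TSS, in exons, in introns or between genes. The excess of 2937 over 1165 falls to 1942 over 1564 with equal lists, and 18% of the regions only after CTCF siRNA lie at a TSS against 58.2% of those in all 4 libraries.

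The regions were narrow and mostly in the higher-scored part of their lists. In CTCF siRNA replicate 1 their median width was 800 bp, from 550 to 2400 bp, where the median of the whole list was 1250 bp. In replicate 2 it was 1050 bp, from 550 to 3950 bp, where the list had 1250 bp. Ordered by score, lowest first, 2.93% of them were in the first 50% of the replicate 1 list and 25.1% in that of replicate 2. Just inside and just outside the rule the widths were close. The merged regions had a median width of 1150 bp, against 1350 bp for the 4940 regions also called in control replicate 2 and 1250 bp for the 604 also called in control replicate 1. Regions only in control had a median of 1050 bp and those in all 4 libraries 2350 bp. The whole set covered 3537500 bp. The widest region of all by the narrower of its replicates, 2400 and 2300 bp (chrX:43035801-43038400), held the TSS of the lncRNA PINCR, which is induced by p53, and carried H3K27ac in 3 libraries, all but control replicate 2.

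Most of the regions lay away from annotated starts. A TSS was within 1 kb of 528 of 2937 (18%, 95% interval 16.6 to 19.4), against 12.2% (10.4 to 14.2) of the regions only in control, 58.2% (57.6 to 58.8) of those in all 4 libraries and 41.0% of all consensus regions. Of the other regions only after CTCF siRNA, 258 overlapped an exon, 1291 lay in introns (44%) and 860 between genes (29.3%). The median distance to a protein-coding TSS was 22644 bp, and 666 regions (22.7%) were over 100 kb from one. The low share at a TSS went with narrow width: among regions of at most 1300 bp, the upper quartile of the set, a TSS was within 1 kb of 14.8% (13.4 to 16.3) of the regions only after CTCF siRNA, of 11.5% (9.71 to 13.7) of those only in control and of 21.0% (19.2 to 22.8) of those in all 4 libraries. These intervals cover counting error only. A region of all 4 libraries lay within 1 kb of 125 (4.26%) and within 5 kb of 435 (14.8%), with a median distance of 34100 bp. For the regions only in control, 4.89% and 15.9% were that close. Of the 2409 regions without a TSS, 1212 lay within a protein-coding gene, and for 1024 of these (84.5%) the gene had an H3K4me3 region of all 4 libraries at one of its starts, against 86.7% over all consensus regions of that kind.

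Within 1 kb of a TSS of a protein-coding gene, the regions touched 346 of 20090 genes, or 1.72%. For 160 of these genes the region was the only consensus H3K4me3 region at any annotated TSS, and 170 also had a region of all 4 libraries at a TSS, the same or another. Among lncRNA genes 171 of 18576 were touched, and for 146 of them it was the only one. A protein-coding TSS lay inside 229 of the regions. After HTR4, ADAMTSL1 and ACER3, the next widest of these were at TCTE1, a gene for a sperm flagellum protein, at SLC1A2, which encodes a glutamate transporter of astrocytes, and at PSD4, which encodes an exchange factor for ARF6. The TCTE1 region (chr6:44264401-44266400) was 1800 and 2000 bp wide and had no H3K27ac in any library. The SLC1A2 region (chr11:35439701-35441850) was 1650 and 2150 bp wide and had none either. The PSD4 region (chr2:113955701-113957650) was 1600 and 1950 bp wide and had H3K27ac in CTCF siRNA replicate 1 only. PSORS1C1 and NOS3, the gene of endothelial nitric oxide synthase, carried H3K27ac in all 4 libraries. ONECUT1, a homeobox factor of liver and pancreas, and BMP3, a bone morphogenetic protein, carried none. The ONECUT1 region (chr15:53072251-53073650), 1400 bp wide in both replicates, overlapped a persistent CTCF site.

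Promoters of the regions fell into CpG-rich and CpG-poor ones, and these differed in acetylation. The median ratio of observed to expected CG dinucleotides was 0.31 in the 528 regions at a TSS and 0.22 elsewhere. In 130 regions at a TSS it was 0.6 or more, and 123 of these (94.6%, 89.3 to 97.4) had no H3K27ac region in any library. In the 398 with a lower ratio that share was 29.9% (25.6 to 34.6). The contrast was not confined to promoters. Without a TSS within 1 kb, 55 of 63 CpG-rich regions (87.3%, 76.9 to 93.4) and 27.3% (25.6 to 29.2) of the CpG-poor ones had none. In each library 3.85% to 4.62% of the CpG-rich regions at a TSS carried H3K27ac, while 52.0% to 65.8% of the CpG-poor ones did. Of CpG-rich TSS regions in all 4 libraries, 21.6% had no H3K27ac. Among TSS regions of all 4 libraries that were CpG-rich and at most 1300 bp wide, 135 of 162 (83.3%, 76.8 to 88.3) had none, against 68 of 71 (95.8%, 88.3 to 98.6) of those only after CTCF siRNA. All 14 CpG-rich TSS regions only in control lacked it as well. 

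Gene lists drawn up with earlier results of these data known were set beside the 1.72% of all protein-coding genes that had such a region within 1 kb of a TSS. None of the 18 genes of CTCF, cohesin and looping factors had one, and none of 35 interferon response genes, 28 p53 targets, 31 androgen response genes, 26 basal and mesenchymal genes, 35 cancer-testis genes, 30 stress and immediate early genes, 86 histone genes, 53 clustered protocadherins, 39 HOX genes, 412 olfactory receptor genes or 15 kallikrein genes. No region lay between KLK1 and KLK14 (chr19:51322402-51587502). Of 536 zinc finger genes 4 had one (0.746%), namely ZNF337, ZNF486, ZNF565 and ZNF728. Of 368 solute carrier genes 11 had one (2.99%), and of 176 ion channel genes 5 (2.84%). Of 149 keratin genes only KRT7 had one, of 28 neuroendocrine and neuronal genes only NEUROD1, and of 30 imprinted genes IGF2 and MAGEL2. In such small counts these shares are descriptions.

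Developmental transcription factor and signalling families had 8 of 189 genes with a region (4.23%), namely EN1, LHX6, LHX8, POU2F3, SOX21, TBX5, WNT4 and WNT7A. EN1, LHX6 and LHX8 are homeobox factors of the nervous system, SOX21 is a neural SOX factor, TBX5 acts in heart and forelimb, and WNT4 and WNT7A are secreted ligands. No H3K27ac region was called in any library at EN1, LHX6, LHX8, SOX21, TBX5 or WNT4. The CG ratio there was 0.91 at EN1, 0.96 at LHX6, 0.78 at LHX8, 0.85 at SOX21, 0.67 at TBX5 and 0.60 at WNT4. POU2F3, the factor of tuft cells, had a lower ratio of 0.21, a lost CTCF site in the region and H3K27ac in control replicate 1 and both CTCF siRNA libraries. WNT7A had a ratio of 0.29 and H3K27ac in CTCF siRNA replicate 2 only. The NEUROD1 region (chr2:182545151-182546500), 1100 and 1350 bp wide and also over a TSS of CERKL, had no H3K27ac and a ratio of 0.68. The IGF2 region (chr11:2171401-2172600) was 1000 bp wide in both replicates, lay over 1 lost and 1 persistent CTCF site and had no H3K27ac.

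H3K27ac libraries had no part in choosing the regions, although replicates of the marks may share cells, and CTCF siRNA replicate 2 had the longest list for both. An H3K27ac region overlapped 55.1% and 46.9% of the 2937 regions in the control libraries and 62.3% and 63.8% in the CTCF siRNA libraries. Both values after CTCF siRNA were above both control values. The means were 51.0% ± 5.9 (SD, n = 2) and 63.1% ± 1.1 (SD, n = 2), a difference of 12.1 percentage points (two-sided exact permutation test over libraries, p = 0.33, the smallest that 2 against 2 allows). Many of the regions thus carried H3K27ac in control cells already. In all other consensus regions the shares were 79.5% and 74.5% in control and 79.2% and 80.4% after CTCF siRNA, and these groups overlap. The gap between the regions and the other consensus regions was -24.4 and -27.7 percentage points in the control libraries and -16.8 and -16.6 after CTCF siRNA, a change of 9.32 (exact permutation p = 0.33). The gap to regions of all 4 libraries was smaller at like width. Over all widths, regions of all 4 libraries had 82.7% and 79.7% in control, then 83.2% and 84.0%. Among regions of at most 1300 bp, those only after CTCF siRNA had 51.3% and 42.5% in control, then 58.9% and 61.0%. Those in all 4 libraries had 63.3% and 53.4%, then 61.3% and 61.8%. Regions only in control, taken over all widths, went from 70.1% and 52.7% to 56.0% and 57.9%, with overlapping groups. The H3K27ac lists were also longer after CTCF siRNA, with 94415 and 98973 regions against 86949 and 69949. With H3K27ac lists of equal length the difference was 9.45 percentage points for the regions and 0.426 for all consensus regions.

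**Figure D3:**
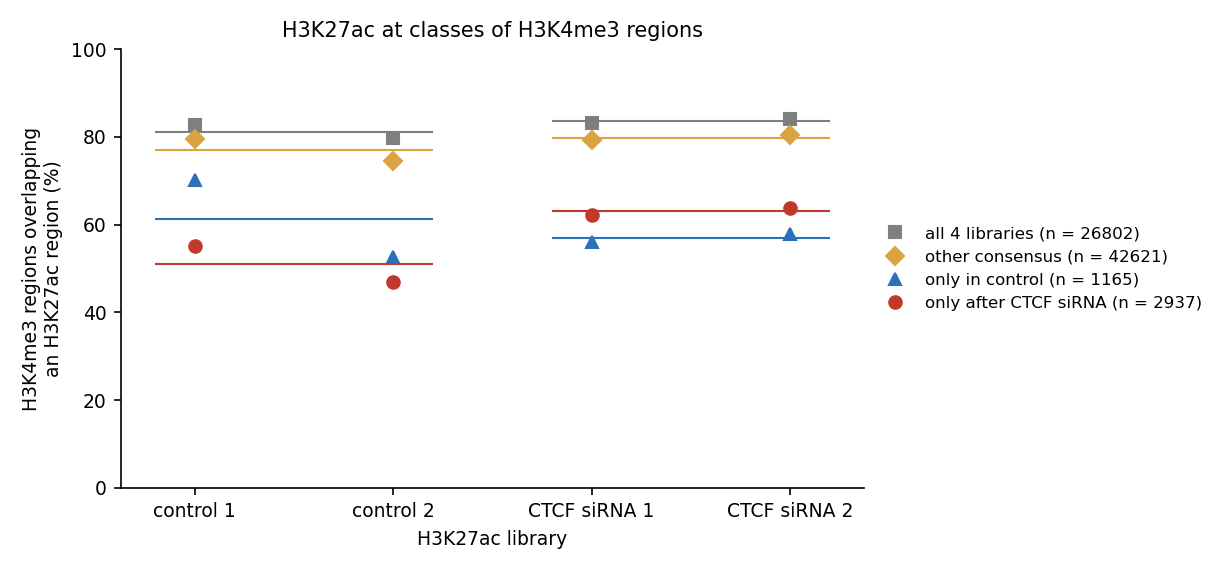
Share of H3K4me3 regions (%) that overlap an H3K27ac region in each of the 4 H3K27ac libraries, for 4 classes of H3K4me3 region; points are libraries and lines the means of 2. The regions only after CTCF siRNA (red) go from 55.1% and 46.9% in control to 62.3% and 63.8%, and regions of all 4 libraries stay between 79.7% and 84.0%. The classes were not matched for width.

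By region, 1275 of 2937 (43.4%, 41.6 to 45.2) had H3K27ac in all 4 libraries, 938 (31.9%, 30.3 to 33.6) in none, and 173 (5.89%, 5.10 to 6.80) only after CTCF siRNA, in both of its libraries. The same share over all consensus H3K4me3 regions was 1.9%, and over regions of all 4 libraries 1.34% (1.21 to 1.48). Among regions of at most 1300 bp it was 6.67% (5.70 to 7.79) of those only after CTCF siRNA, 1.87% (1.36 to 2.57) of those in all 4 libraries and 1.09% (0.612 to 1.95) of those only in control. The opposite change, H3K27ac in both control libraries alone, was seen at 5 of the 2937 regions. It was seen at 43 of the 1165 regions only in control (3.69%), against 0.579% of all consensus regions. Just outside the rule, among 5544 regions in both CTCF siRNA libraries and in 1 control library, 2.67% (2.28 to 3.13) had H3K27ac only after CTCF siRNA. Of the 173 regions, 20 were at a TSS and 153 were not. Where H3K27ac was present in all 4 libraries, the median width of its regions over the 1275 was 1800 and 1500 bp in control and 2150 and 2650 bp after CTCF siRNA. Over all consensus regions of that kind it was 2450 and 2100 bp in control and 2550 and 3050 bp after.

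Of the 6 widest regions with H3K27ac only after CTCF siRNA, HTR4 alone had a TSS within 1 kb. After it came regions 7640 bp from the TSS of EYA1, a coactivator of organ development, with widths of 1700 and 1750 bp, and 1127 bp from that of BEST2, a gene for a chloride channel, with 1450 and 1600 bp. The BEST2 region (chr19:12867801-12869400) had a CG ratio of 0.63. A region in an intron of GMDS (chr6:1723751-1725200), 1510 bp from the TSS of this gene of GDP-fucose synthesis, was 1350 and 1400 bp wide. An intergenic region 28050 bp from CFAP47 (chrX:35908351-35909800), 1450 and 1350 bp wide, was 1069250 bp from the nearest H3K4me3 region of all 4 libraries. The last, 5131 bp from PLEKHO2 (chr15:65127251-65128950), was 1300 and 1700 bp wide. The CFAP47 and PLEKHO2 regions each overlapped a lost CTCF site.

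CTCF binding fell across the genome after CTCF siRNA. The control CTCF lists held 37969 and 46293 peaks, and those from CTCF siRNA cells 3711 and 7716. By the reporting summary CTCF siRNA replicate 1 was sequenced least of the 4, and its part in the peak counts and in the calls of lost and persistent sites was not tested. Of 33376 sites with a peak in both control libraries, 3090 (9.26%) also had one in both CTCF siRNA libraries and are persistent. The other 30286 are called lost, including 4047 that kept a peak in 1 CTCF siRNA library.

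Most of the regions were not at a lost CTCF site. A lost site overlapped 212 of 2937 (7.22%, 6.34 to 8.21), against 11.8% (10.0 to 13.7) of the regions only in control, 13.0% of those in all 4 libraries and 10.6% of all consensus regions. Within 10 kb the share was 28.3% (26.7 to 30.0), against 26.6% (24.2 to 29.2) of the regions only in control, 35.2% of those in all 4 libraries and 31.6% of all consensus regions. The median distance to a lost site was 27071 bp, against 22959 bp over all consensus regions. Without a TSS within 1 kb, a lost site overlapped 6.81% (5.87 to 7.88) of the regions and 7.45% of the consensus regions. The shares within 10 kb were then 26.5% and 26.3%. At a TSS, 9.09% (6.93 to 11.8) and 15.0% overlapped a lost site, and 36.6% and 39.2% had one within 10 kb. The groups were not matched for width. By these measures the regions were not clearly nearer to lost sites than consensus regions in general. The 47 sites with a CTCF peak only after CTCF siRNA overlapped none of them.

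A persistent site overlapped 90 of the 2937 regions (3.06%, 2.50 to 3.75), against 9 of 1165 (0.773%, 0.407 to 1.46) of those only in control, 1.71% (1.56 to 1.87) of those in all 4 libraries and 1.72% of all consensus regions. In all, 303 control sites lay in 297 of the regions, and 90 of these sites (29.7%, 24.8 to 35.1) were persistent, where 9.26% of all control sites were. In the regions only in control it was 9 of 149 (6.04%, 3.21 to 11.1), and in those of all 4 libraries 464 of 4164 (11.1%, 10.2 to 12.1). Each CTCF siRNA library showed this alone, with a peak at 32.3% of the 303 sites in replicate 1 and at 44.9% in replicate 2, where 10.0% and 20.6% of all control sites had one. The share was 29.2% with H3K4me3 lists of equal length. By the libraries in which the H3K4me3 region was found, the share was 6.04% with both control libraries alone. It was 15.4% with 1 CTCF siRNA library added, 18.2% (14.9 to 21.9) with 1 control and 1 CTCF siRNA library, and 11.1% with all 4. With both CTCF siRNA libraries and 1 control it was 21.6%, and with both CTCF siRNA libraries alone 29.7%.

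Persistent sites are stronger sites, so the shares were also compared at like strength. The sites in the regions had a median fold enrichment of 16.4 in control cells, and all control sites 12.5. At a control enrichment of 10 to 20, 22 of 117 sites in the regions were persistent (18.8%, 12.8 to 26.8), against 8.44% (7.21 to 9.85) of the sites in regions of all 4 libraries and 5.35% (4.96 to 5.78) of sites in no consensus H3K4me3 region. At 20 to 30 it was 37 of 77 (48.1%, 37.3 to 59.0), against 27.7% (24.4 to 31.2) and 20.6% (19.4 to 21.8). At 30 to 40 it was 21 of 35 (60.0%, 43.6 to 74.4), against 43.5% (36.4 to 50.9) and 36.1% (33.6 to 38.7), and at 40 and over 6 of 8, against 48.0% and 54.4%, with overlapping intervals. Under 10 it was 4 of 66 (6.06%, 2.38 to 14.6), against 2.35% and 0.923%. In the regions only in control the persistent sites were 1 of 29 under 10, 4 of 72 at 10 to 20, 1 of 34 at 20 to 30, 3 of 11 at 30 to 40 and 0 of 3 at 40 and over. The intervals cover counting error only, and the CTCF lists give no read counts.

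**Figure D4:**
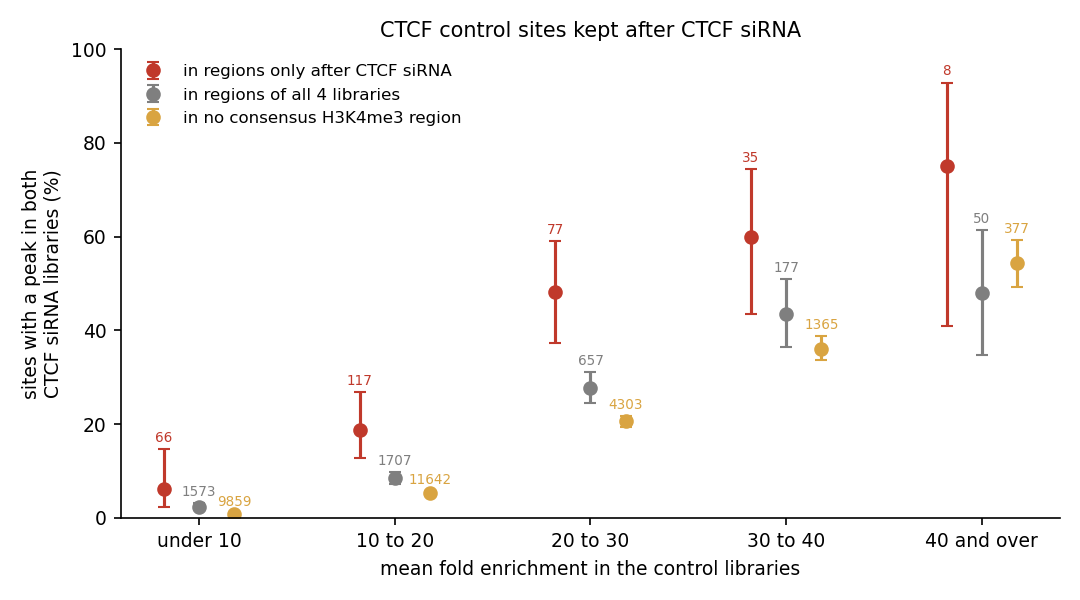
Share (%) of CTCF sites found in both control libraries that kept a peak in both CTCF siRNA libraries, by mean control fold enrichment, for sites in H3K4me3 regions only after CTCF siRNA (red), in regions of all 4 libraries (grey) and in no consensus region (yellow); bars are 95% Wilson intervals and the numbers above them count sites. At 20 to 30 the shares are 48.1%, 27.7% and 20.6%, and at 40 and over the red point rests on 8 sites.

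At the 90 persistent sites in the regions the median fold enrichment was 24.2 and 28.3 in the control libraries and 10.4 and 14.2 after CTCF siRNA. At the 464 in regions of all 4 libraries it was 22.6 and 22.4 in control and 9.10 and 13.4 after. Fold enrichment compares a peak with its surroundings in 1 library, and libraries were not scaled to each other. The summit was nearer to the centre than to the edge of the region at 68 of 90 persistent sites (75.6%, 65.8 to 83.3) and at 142 of 213 lost ones (66.7%, 60.1 to 72.7), a median of 177 and 201 bp from the centre. In regions of all 4 libraries the shares were 82.8% (79.1 to 85.9) and 66.5% (64.9 to 68.0). At the 90 regions over a persistent site, H3K27ac was called at 28.9% and 23.3% in control and 45.6% and 42.2% after CTCF siRNA. In the 2640 regions without a control site the shares were 56.2% and 48.1% in control and 63.0% and 64.5% after. A TSS was within 1 kb of 22 of the 90 (24.4%, 16.7 to 34.2) and of 17.5% (16.1 to 19) of the 2640.

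The persistent site with the highest control enrichment, 7022 bp from ASPG in an intergenic region (chr14:104543551-104545000), had fold enrichments of 64.1 and 62.8 in control and 22.8 and 39.6 after CTCF siRNA, and its H3K4me3 region was 1350 and 1400 bp wide. That near MPZL1 (chr1:167772051-167773400) had 48.1 and 55.6 in control and 10.4 and 19.4 after, and H3K27ac in all 4 libraries. In the region near SERPINA9 (chr14:94951951-94953150) the site had 53 and 42.6, then 22.7 and 30.9. In that near the homeobox gene BARX2 (chr11:129233451-129234800) it had 37.3 and 49.5, then 9.10 and 13.1, with no H3K27ac. The LGR6 region (chr1:202162001-202163450), at the TSS of a stem cell receptor, was 550 and 1450 bp wide, and its site had 39.0 and 44.1, then 7.38 and 20.8. The site at the TSS of PCAT1, a prostate cancer lncRNA, had 44.6 and 55.1, then 10.5 and 17.1.

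The strongest lost site in a region, at KHNYN (chr14:24900951-24902800), had fold enrichments of 32.8 and 48.1 in control and no peak after CTCF siRNA. KHNYN encodes a ribonuclease, the region was 900 and 1850 bp wide, held a TSS and carried H3K27ac in all 4 libraries. The site at DGKD, a diacylglycerol kinase gene (chr2:234357001-234358350), went from 36.3 and 35.1 to no peak, and its region had H3K27ac in CTCF siRNA replicate 2 only. The other 4 kept a peak in CTCF siRNA replicate 2 but none in replicate 1. They lay at S1PR1, a sphingosine phosphate receptor gene (chr1:101704251-101705500), with 37.5 and 42.8 in control and 7.15 in replicate 2, at TTC7A (chr2:47213951-47215050), with 36.3 and 40, then 12.2, at ZNF76 (chr6:35208951-35210150), with 33.2 and 41.8, then 11, and in the glycine transporter gene SLC6A5 (chr11:20631151-20632300), with 35.6 and 37.8, then 10.8.

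The regions were scattered along the chromosomes. The median gap between neighbours was 570225 bp, and 2497 of 2937 (85.0%) had no other such region within 50 kb. Chains of 3 or more with gaps of at most 50 kb numbered 29 and held 92 regions (3.13%, 2.56 to 3.83). The next consensus region along the chromosome was again a region only after CTCF siRNA in 255 cases (8.68%, 7.72 to 9.76), against 6.45% of all consensus regions. For the regions only in control the same shares were 4.98% (3.87 to 6.38) and 2.56%. By chromosome, their share of the consensus regions ran from 4.34% (3.47 to 5.40) on chromosome 19 to 8.68% (7.40 to 10.2) on chromosome 14. Within 1 Mb of an assembly gap of at least that length lay 1.29% of them and 1.76% of all consensus regions.

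Of 5 chains of 4 regions, the 4 with the shortest spans are described first. The tightest spanned 38350 bp at PLA2G4D (chr15:42349001-42387350), a gene for a cytosolic phospholipase, and held no other consensus H3K4me3 region. It contained 4 CTCF control sites, 1 of them persistent. One region, 550 and 850 bp wide and 464 bp from a PLA2G4D TSS, overlapped the persistent site and had H3K27ac only after CTCF siRNA. A pair at the start of the gene, 800 and 1850 bp and 700 and 950 bp wide, had H3K27ac in all 4 libraries. The region downstream of the gene overlapped a lost site and had H3K27ac in CTCF siRNA replicate 2 only. A chain of 4 over 40500 bp in PPFIBP2, a liprin gene (chr11:7566951-7607450), had H3K27ac in all 4 libraries at each region. In HYDIN, a gene of motile cilia (chr16:71007101-71070700), 4 regions over 63600 bp had H3K27ac in all 4 libraries at 1 and only after CTCF siRNA at 1. In AFF1, a gene of the elongation machinery (chr4:87860401-87937400), 4 regions over 77000 bp lay among 5 regions of all 4 libraries, and 1 of the 4 had H3K27ac only after CTCF siRNA. No CTCF control site lay in the AFF1 chain. The fifth chain (chr14:21341301-21467600), named after its values were seen, spanned 126300 bp, with SLC39A2, METTL17, RNASE2 and RNASE3 as its protein-coding genes, and 3 of its 4 regions had no H3K27ac in any library.

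**Figure D5:**
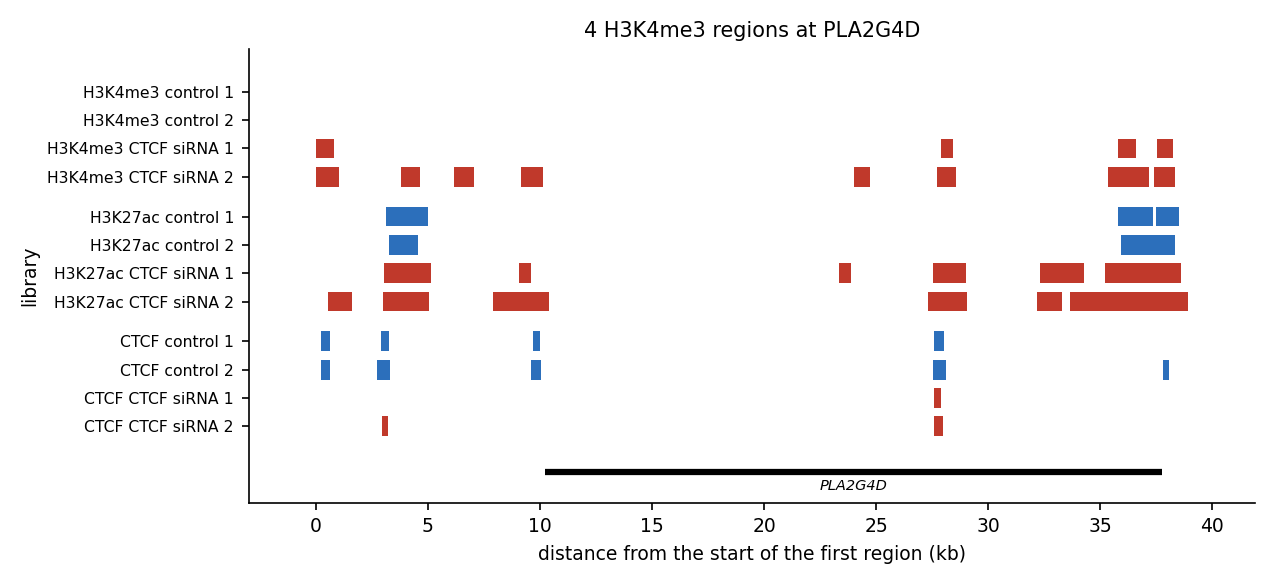
Regions and peaks called in each of the 12 libraries around the 4 regions at PLA2G4D, in kb from the start of the first; each bar is 1 called region or peak, blue in control and red in CTCF siRNA libraries, and the black line is the gene. H3K4me3 is called in the CTCF siRNA libraries only, H3K27ac is called in control cells at the gene's start and beyond its end, and 1 of the 4 CTCF control sites keeps a peak in both CTCF siRNA libraries.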

How the data were processed

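Of the ChIP-seq libraries of the series, the 12 from LNCaP cells were used, and those from IMR90 cells were not used here. Per the methods, reads were mapped by the authors to hg19 using Bowtie. They dropped ambiguous and clonal reads, and called histone regions with PeakRanger and CTCF peaks with MACS2, in each library separately. The histone lists the authors deposited give positions on a 50-bp grid and a score of unstated meaning, used only to rank regions (lowest first, then widest, an assumed direction). The deposited CTCF lists give fold enrichment, a ratio to local background, and p-values and q-values on a −log10 scale, which the authors cut at their own FDR. No list gives read counts per region, so the depth behind a region is unknown. Library read totals are in the study's reporting summary and are not printed here. For both histone marks CTCF siRNA replicate 2 had the fewest reads and the most regions. The other libraries of each mark ranked alike by reads and by regions.

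Regions were merged at 1 bp of overlap. Shares carry Wilson 95% intervals, which cover counting error between regions and not the spread between libraries. Libraries were compared with exact permutation tests. TSSs, exons and genes came from GENCODE release 44 on hg19 coordinates. Each of the 536121 histone regions used lay within the length of its GRCh37 chromosome, to within 50 bp. Sequence was read from GRCh37. Python 3.11.15, numpy 2.4.6, pandas 2.3.3, SciPy 1.17.1 and matplotlib 3.10.9 were used, and merging, distances and chains were tested on simulated regions.

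The regions and gene lists were chosen with earlier results of these data known. Named regions are the 8 widest by the narrower replicate, the 10 widest that hold a protein-coding TSS, the 6 widest with H3K27ac only after CTCF siRNA, the 6 lost and 6 persistent CTCF sites with the highest mean control enrichment, the 4 chains with most regions (ties by shorter span), and regions at listed genes. Of the 8 widest, those at IFT46, HPCAL1 and USP25 had H3K27ac in all 4 libraries. Alternatives were other overlaps, merging distances, windows, thresholds, lists of equal length, and leaving out each library. Some markers of the luminal prostate are not reported here.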

Additional observations from a re-analysis of the deposited data

How the results depend on the processing

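With whole lists 2937 regions met the rule. Lists of equal length gave 1942 and the lowest-scored 50% of each list 918, and leaving out 1 H3K4me3 library gave 3546 to 19453, the most when CTCF siRNA replicate 1 was dropped. It was 7901 without control replicate 2 and 5800 if CTCF siRNA replicate 2 was dropped. An overlap of 50%, merging up to 1000 bp and all contigs stayed within 1.5 times of the count with whole lists. Of the 2937 regions, 65 were among the 918 and 1116 among the 1942. Shares given below for the lowest-scored 50% of the H3K4me3 lists thus rest mostly on other regions.

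The share at a TSS was 36.9% within 5000 bp, 12.3% with the TSS inside, 11.5% for protein-coding TSSs, 21.9% with equal lists, 32.6% in the lowest-scored 50%, and 14.6% to 18.2% without 1 library. It was below that of the consensus regions in each.

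The H3K27ac difference kept its sign, from 7.93 without control replicate 2 to 16.2 percentage points without control replicate 1 when 1 library was left out, which leaves no test. With the replicate number as a block it was 12.1 (paired exact permutation p = 0.50). The numbers are not known to pair the libraries, as the deviations of same-numbered libraries had a correlation of -0.018 over the consensus regions, with 2 pairs.

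H3K27ac only after CTCF siRNA was found at 9.70% of the regions with the lowest-scored 50% of the H3K27ac lists, at 4.43% with H3K4me3 lists of equal length, and at 7.73% to 14.2% without 1 library, the most without control replicate 1. It was above the consensus share in each.

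A lost CTCF site lay within 10 kb of 40.1% with control sites taken from either library and of 30.7% with equal lists, and of 24.9% to 36.5% without 1 library. It lay within 1000 bp of 9.77% and within 50000 bp of 69.2%. It overlapped 10.2% with either library and 8.60% with equal lists, and 5.65% to 9.16% without 1 library. The share was below that of the consensus regions in each of these settings, none of which was split by TSS or width.

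The share in chains of 3 or more was 0.715% with gaps of 20000 bp, 6.47% with 100000 bp, 2.22% with merging up to 1000 bp, 0.927% with equal lists, and 4.20% to 34.0% without 1 library, the most when CTCF siRNA replicate 1 was dropped, with 10.4% without control replicate 2 and 7.47% when CTCF siRNA replicate 2 was dropped.

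The persistent share of CTCF sites in the regions, whose alternatives were chosen after seeing the data, was 24.6% with the lowest-scored 50% of the H3K4me3 lists, 23.2% with control sites from either library, and 24.7% to 44.9% without 1 library, the most when CTCF siRNA replicate 1 of CTCF was dropped, above that of all control sites in each. The causes of these shifts were not tested, beyond the fewer or more regions each setting admits. Lists without read counts cannot tell a region that appeared from one that rose past a threshold.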
